A study of Homo sapiens with 2 samples.

Results

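The genes examined here encode the machinery that copies DNA, namely the factors that license replication origins and the proteins that work at the replication fork. They form a list of 47 genes, drawn up by role with earlier results of these data known, and all 47 were measured among the 19775 genes of the arrays. They were compared between PC3CR, a subline of PC3 with acquired resistance to cabazitaxel (CBZ), a taxane that stabilises microtubules, and the parental line PC3, a prostate cancer cell line. PC3CR had been passaged with CBZ for 18 months and was examined after a further 3 months off the drug, and both lines were kept in the same serum-supplemented RPMI-1640 medium. Total RNA from each line was put on 1 array, so the comparison rests on 2 arrays and no difference given here could be tested against the spread between cultures. The sources do not say whether PC3CR derives from 1 clone. The cell line entry of the labels reads PC3 for both arrays, and the titles tell them apart.

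Origins of replication are prepared in G1 phase, when the origin recognition complex (ORC), CDC6 and CDT1 load the MCM2 to MCM7 helicase onto DNA. On entry into S phase, kinases turn the loaded helicase into a working one together with CDC45 and the GINS complex. DNA polymerases, the sliding clamp PCNA and its loader RFC, the single-strand binding protein RPA and the enzymes that join Okazaki fragments then follow the helicase, and the histone chaperone CAF-1 deposits histones on the new DNA. Many of these genes are transcribed late in G1 phase under E2F transcription factors, and their messages are commonly read as signs of proliferation.

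Values are log2 signals from the robust multichip average (RMA), and each difference is PC3CR minus PC3, so that 1 is a 2-fold difference, the limit used in the study's methods. Where a gene had several probe sets, the one with the highest mean of both arrays stood for it. Over all genes the median difference was -0.04. The median over genes was 6.05 on the PC3CR array and 5.93 on the PC3 array, and a gene was taken as above the signal floor when it reached this median on at least 1 array. Of the 7 control genes measured, such as ACTB and GAPDH, none passed 2-fold, and their median difference was -0.13. As to the identity of the cells, the epithelial keratins KRT8 and KRT18 were bright on both arrays, at 9.79 and 12.36 in PC3CR and 9.72 and 11.69 in PC3. EPCAM was at 8.57 in PC3CR and 11.07 in PC3, and KRT19 was at 8.03 in PC3CR and 11.32 in PC3. CDH1 was at 8.08 in PC3CR and 8.75 in PC3. The unlogged values of these 5 epithelial markers summed to 7047 in PC3CR and 9277 in PC3. The prostate luminal markers were mixed. KLK3 was at 8.08 in PC3CR and 8.04 in PC3, TMPRSS2 at 5.78 in PC3CR and 6.23 in PC3, and HOXB13 at 4.27 in PC3CR and 5.999 in PC3, the 1 of the 5 measured that passed 2-fold. KLK2, at 4.26 in PC3CR and 4.23 in PC3, and FOLH1, at 4.05 in PC3CR and 3.86 in PC3, were close to the lower quartile over genes, which was 4.10 in PC3CR and 4.22 in PC3. Markers of other cell types were not uniformly dim. Of the 4 fibroblast markers, COL1A1 was at 6.56 in PC3CR and 8.69 in PC3 and the other 3 were within 2-fold, with a sum over the list of 208 in PC3CR and 553 in PC3. The leukocyte marker PTPRC was at 2.95 in PC3CR and 3.03 in PC3, below the quartile, and CD3E at 5.46 in PC3CR and 5.74 in PC3. Of the endothelial markers, CDH5 was at 3.28 in PC3CR and 3.24 in PC3, VWF at 4.07 in PC3CR and 4.201 in PC3, and PECAM1 at 5.81 in PC3CR and 6.41 in PC3. None of the non-epithelial markers passed 2-fold towards PC3CR, and their part in the results was not tested.

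Replication genes were mostly higher in PC3CR than in PC3. A 2-fold excess or more in PC3CR was seen for 23 of the 47 genes, the opposite for none, and 24 lay within 2-fold. Over all 19775 genes, 9.84% were higher by that much and 6.72% lower by that much. Because 46 of the 47 genes lay above the signal floor, the 10663 genes above it are the closer background, and among these the shares were 15.5% higher and 10.8% lower. The median difference of the replication genes was 0.92, with a range of -0.65 for ORC2 to 2.49 for MCM10. Altogether 40 of the 47 genes were higher in PC3CR, 17 of them by less than 2-fold, and this number was also 40 after median centring, loess centring and quantile normalization. In bulk RNA of this kind, more cells in S phase and more message per cell cannot be told apart. Genes of G2 and M phase were higher alongside: 37 of 54 passed 2-fold towards PC3CR and none towards PC3, their median was 1.47, and their unlogged values summed to 47480 in PC3CR and 24192 in PC3. The summed values of the replication genes were 23121 in PC3CR and 13474 in PC3. The part of the proliferation markers in the differences of the replication genes was not tested.

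**Figure D1:**
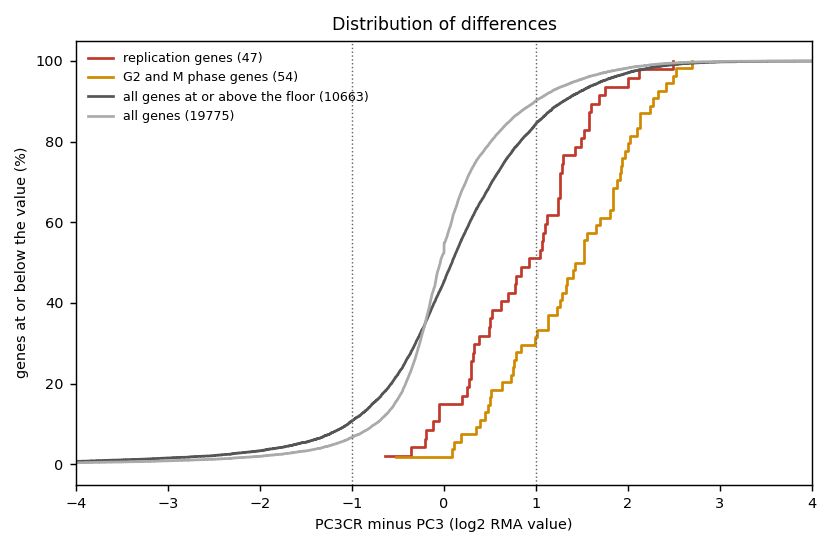
Cumulative share of genes (%, vertical axis) at or below a given value of PC3CR minus PC3 (log2, horizontal axis) for replication genes, G2 and M phase genes, genes above the signal floor and all genes, with 1 array per cell line. Dotted lines mark 2-fold; the curve of the replication genes, with a median of 0.92, lies between those of all genes and of the G2 and M phase genes, with a median of 1.47.

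The promoters were searched for the words bound by E2F factors. RefSeq promoters on GRCh38.p14, running from 250 bases before to 50 bases after the annotated start, were listed for 41 of the 47 genes, with 51 starts in all. The E2F words were TTTGGCGC, TTTCCCGC, TTTGCCGC and TTTCGCGC on either strand, and overlapping words such as a palindrome were each counted. At least 1 such word was present in 21 of the 41 genes (51.2%), against 5.36% of the 15384 measured genes with a promoter listed. The share was 3.99% of all 27305 genes with a promoter listed, or 3.31% of all 35116 promoters of the same length. The sequences below are the 250 bases upstream of the start, 5′ to 3′ on the strand of the gene, with E2F words in capitals. They were picked, after the values were seen, to set genes past 2-fold (MCM6, CDC7, POLA2) beside genes within 2-fold (PCNA, MCM7, ORC2).
MCM6, chr2:135876444-135876693, minus strand: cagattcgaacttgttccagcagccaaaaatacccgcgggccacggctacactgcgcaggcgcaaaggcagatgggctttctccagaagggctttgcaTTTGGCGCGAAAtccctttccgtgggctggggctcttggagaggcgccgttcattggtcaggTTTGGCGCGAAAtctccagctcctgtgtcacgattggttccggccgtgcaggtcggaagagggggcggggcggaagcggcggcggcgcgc
CDC7, chr1:91500862-91501111, plus strand: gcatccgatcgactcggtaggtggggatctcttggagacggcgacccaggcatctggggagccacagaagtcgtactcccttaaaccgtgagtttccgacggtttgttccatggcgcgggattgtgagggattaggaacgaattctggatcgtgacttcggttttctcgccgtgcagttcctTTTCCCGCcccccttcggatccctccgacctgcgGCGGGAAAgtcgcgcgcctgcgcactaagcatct
POLA2, chr11:65261712-65261961, plus strand: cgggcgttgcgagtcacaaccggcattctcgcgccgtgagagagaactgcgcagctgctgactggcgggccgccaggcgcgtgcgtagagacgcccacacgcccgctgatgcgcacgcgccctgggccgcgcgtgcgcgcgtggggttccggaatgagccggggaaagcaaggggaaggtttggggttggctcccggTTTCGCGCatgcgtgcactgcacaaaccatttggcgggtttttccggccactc
PCNA, chr20:5126623-5126872, minus strand: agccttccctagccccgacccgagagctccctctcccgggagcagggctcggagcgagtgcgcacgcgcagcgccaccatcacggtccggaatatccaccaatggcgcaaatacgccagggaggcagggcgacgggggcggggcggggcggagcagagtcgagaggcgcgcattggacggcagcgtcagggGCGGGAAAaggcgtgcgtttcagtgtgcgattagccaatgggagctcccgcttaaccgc
MCM7, chr7:100101398-100101647, minus strand: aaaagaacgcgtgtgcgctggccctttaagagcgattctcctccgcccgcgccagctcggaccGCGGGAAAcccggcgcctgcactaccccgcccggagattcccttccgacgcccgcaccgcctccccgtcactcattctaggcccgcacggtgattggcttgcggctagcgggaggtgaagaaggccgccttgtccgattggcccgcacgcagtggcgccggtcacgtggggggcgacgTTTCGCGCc
ORC2, chr2:200963661-200963910, minus strand: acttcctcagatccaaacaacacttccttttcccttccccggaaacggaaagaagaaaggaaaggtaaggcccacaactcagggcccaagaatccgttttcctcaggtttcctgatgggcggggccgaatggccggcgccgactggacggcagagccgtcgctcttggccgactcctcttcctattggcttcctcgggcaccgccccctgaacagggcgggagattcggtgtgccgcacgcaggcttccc

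The MCM6 promoter held 4 E2F words in 2 overlapping pairs, starting 152 and 148 and again 90 and 86 bases before the start. CDC7 held 2, at 68 and 34 bases before the start of the promoter shown, and POLA2 held 1, at 53 bases. MCM7 held 2 as well, at 187 and 9 bases before the start of the promoter shown, and PCNA 1 at 59 bases, whereas none was found in the stretch shown for ORC2. A match is a description of letters and not evidence of binding. E2F words were found in 9 of the 18 genes at least 2-fold higher in PC3CR that had a promoter listed (50%) and in 12 of the 23 within 2-fold (52.2%). The median difference was 0.84 for the 21 genes with a word and 0.70 for the 20 without. Among all measured genes with an E2F word, 824 in number, the median difference was 0.07, against -0.04 for those without. Of the 824 genes, 13.2% were at least 2-fold higher in PC3CR, against 9.84% of all genes and 15.5% of genes above the signal floor. The CCAAT word was found in 24 of the 41 genes (58.5%), against 41.7% of measured genes with a promoter listed. The share was 39.7% of all genes with a promoter listed and 34.6% of all promoters. CCAAT was found in 13 of the 18 genes at least 2-fold higher (72.2%) and in 11 of the 23 within 2-fold (47.8%). The median difference was 1.08 for the 24 genes with CCAAT and 0.52 for the 17 without, and over all measured genes it was -0.03 with and without the word. The words TTTGAA and TTCGAA are known as the cell cycle homology region in promoters of G2 and M phase genes. They were found in 2 of the 41 genes, DBF4 and MCM6 (4.88%). The shares were 17.2% of measured genes with a promoter listed, 19.5% of all genes with one and 16.4% of all promoters.

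**Figure D2:**
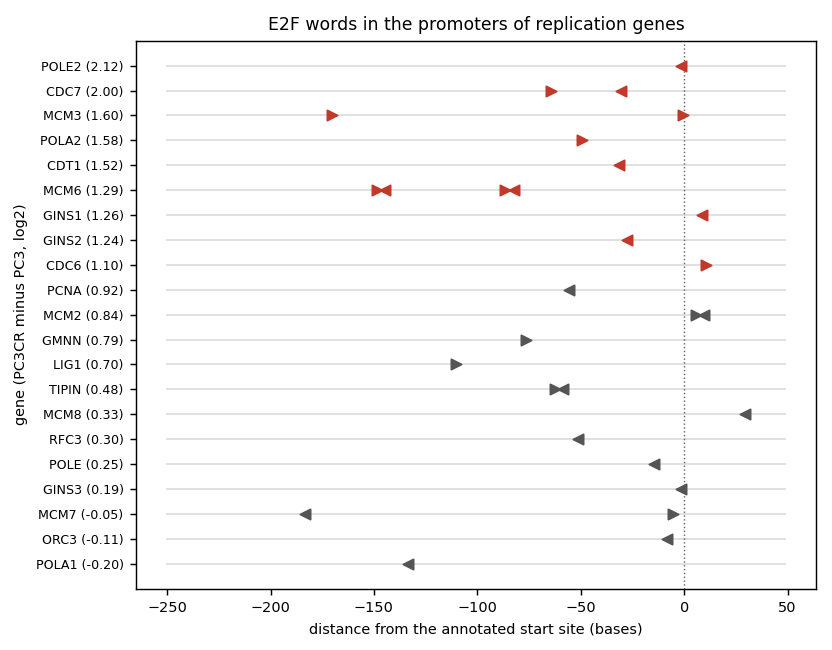
Positions of E2F words along the promoters of the 21 replication genes that held one (horizontal axis, bases from the annotated start, dotted line), 1 row per gene, with the difference between PC3CR and PC3 (log2) in brackets and the largest at the top. Triangles point in the direction of the word, red for genes at least 2-fold higher in PC3CR and dark grey for genes within 2-fold; of 29 words, 18 began within 100 bases upstream of the start.

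Subunits of ORC, which marks origins, did not move together. ORC1, the subunit with the main ATPase activity, was at 6.21 in PC3CR and 4.64 in PC3, a difference of 1.57 or 2.97-fold. It had 1 probe set. The value of ORC1 in PC3 lay below the median over genes of 5.93, and that in PC3CR only just above the median of 6.05. ORC6, the smallest subunit, was at 9.21 in PC3CR and 7.94 in PC3, a difference of 1.27, measured by a probe set whose identifier marks possible binding of related sequences. The other 4 subunits lay within 2-fold. ORC2 was at 7.73 in PC3CR and 8.37 in PC3, a difference of -0.65, the lowest of all 47 genes. Its second probe set, of similar signal, differed by -0.03. ORC3 was at 8.31 in PC3CR and 8.42 in PC3, a difference of -0.11, and ORC5 was at 7.93 in PC3CR and 7.61 in PC3, a difference of 0.31. ORC4 was at 9.02 in PC3CR and 9.22 in PC3, a difference of -0.21, and averaging its probe sets gave 0.08. The median over the 6 subunits was 0.10, with 0.20 for averaged probe sets, 0.34 for plain identifiers and 0.32 for the dimmest probe sets, but -0.02 after median centring, which lowers every gene alike, and -0.01 after quantile normalization or loess centring.

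The factors that load the helicase were higher. CDT1 was at 8.31 in PC3CR and 6.79 in PC3, a difference of 1.52, on a probe set open to related sequences, and its other probe set differed by 0.81 and was within 2-fold. CDC6, the ATPase that joins ORC at origins, was at 7.37 in PC3CR and 6.27 in PC3, a difference of 1.10. Its second probe set differed by 1.11, but the value for CDC6 came within 2-fold after each of the scalings, at 0.97 after median centring, 0.96 after loess centring and 0.93 after quantile normalization. Geminin (GMNN), which binds CDT1 and prevents a second round of licensing, was at 9.60 in PC3CR and 8.81 in PC3, a difference of 0.79. The inhibitor and its target were thus both higher in PC3CR, with geminin within 2-fold.

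The helicase genes MCM2 to MCM7 had the largest median of the complexes compared, 1.44, and 4 of the 6 were at least 2-fold higher in PC3CR. MCM4 was at 9.00 in PC3CR and 7.25 in PC3, a difference of 1.76 or 3.38-fold. MCM5 was at 8.48 in PC3CR and 6.80 in PC3, a difference of 1.68, and MCM3 was at 9.44 in PC3CR and 7.84 in PC3, a difference of 1.596. Of 5 probe sets of MCM4, 4 differed by between 1.72 and 2.17 and the dimmest by -0.30, and both probe sets of MCM5 were past 2-fold. MCM6 was at 10.14 in PC3CR and 8.85 in PC3, a difference of 1.29, and its dimmer probe set differed by 0.90. MCM2 was at 9.02 in PC3CR and 8.17 in PC3, a difference of 0.84 and within 2-fold. MCM7 stood apart from the other subunits of the hexamer, with 9.22 in PC3CR and 9.28 in PC3, a difference of -0.05, and its second probe set differed by -0.19. MCM8, a related helicase that works in homologous recombination and is not part of this hexamer, was at 7.18 in PC3CR and 6.85 in PC3, a difference of 0.33.

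**Figure D3:**
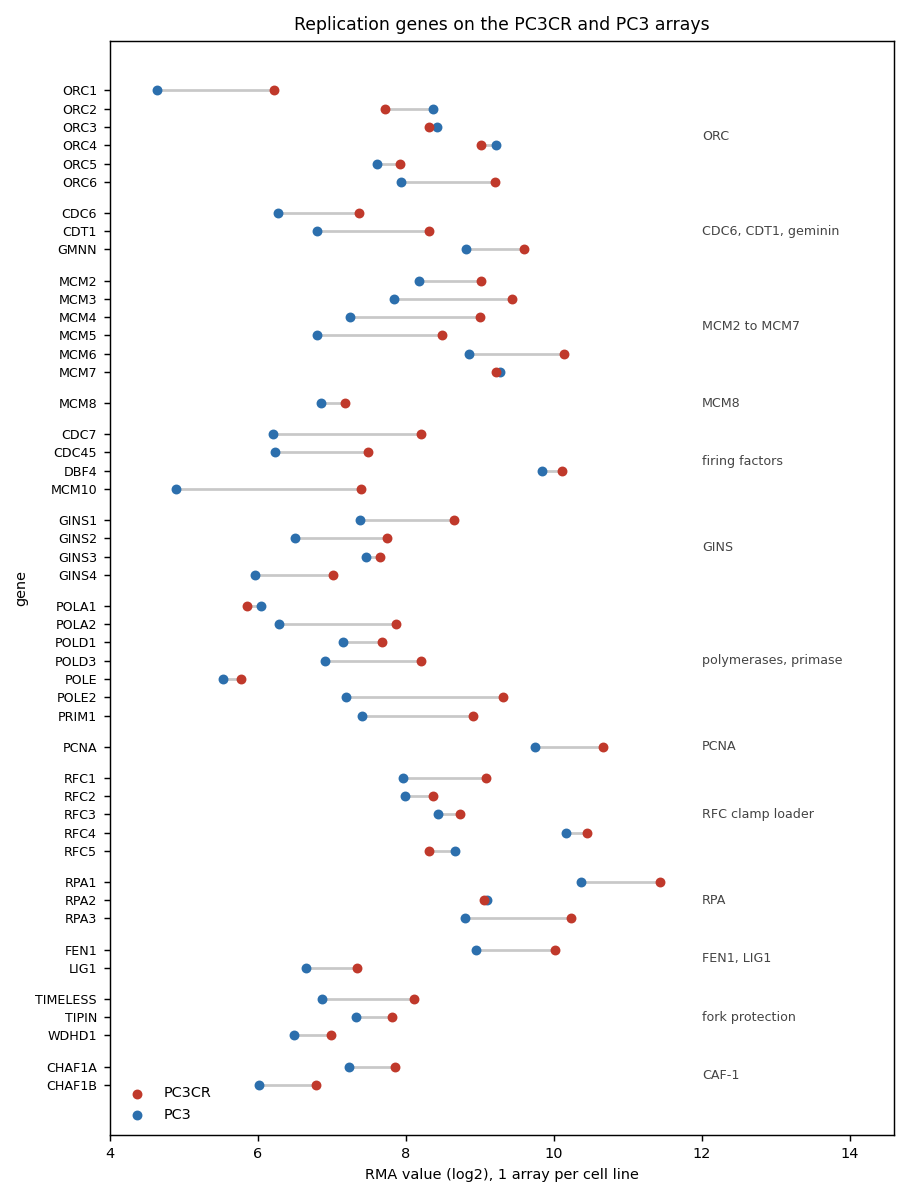
RMA values (log2, horizontal axis) of the 47 replication genes on the PC3CR array (red) and the PC3 array (blue), 1 row per gene, grouped by role, with 1 array per cell line and no error bars for that reason. PC3CR lies to the right of PC3 for 40 genes; MCM10 has the longest line, with 7.39 in PC3CR and 4.90 in PC3, and MCM7 and RPA2 have nearly coincident points.

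Among the factors that fire origins, MCM10, which is needed for the loaded helicase to unwind DNA, had the largest difference of all 47 genes. It was at 7.39 in PC3CR and 4.90 in PC3, a difference of 2.49 or 5.63-fold, and its other probe sets differed by 3.19 and 2.32. The value in PC3 lay below the median over genes, and that in PC3CR above it. CDC7, the kinase that phosphorylates the MCM complex, was at 8.21 in PC3CR and 6.20 in PC3, a difference of 2.003 or 4.01-fold. Its activating subunit DBF4 was at 10.11 in PC3CR and 9.85 in PC3, a difference of 0.27 and within 2-fold. CDC45 was at 7.48 in PC3CR and 6.23 in PC3, a difference of 1.26. These 4 genes had a median of 1.63.

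The GINS complex binds CDC45 and the helicase, and 3 of its 4 subunits were at least 2-fold higher, with a median of 1.14. GINS1 was at 8.65 in PC3CR and 7.39 in PC3, a difference of 1.26, and GINS2 was at 7.74 in PC3CR and 6.50 in PC3, a difference of 1.24. The 2 dimmer probe sets of GINS2 differed by -0.06 and 0.48. GINS4 was at 7.01 in PC3CR and 5.97 in PC3, a difference of 1.04, which came within 2-fold after each of the scalings tried (0.92 after median centring, 0.93 after loess centring and 0.89 after quantile normalization). Its 3 dimmer probe sets differed by between -0.01 and 0.49. GINS3 was at 7.65 in PC3CR and 7.46 in PC3, a difference of 0.19, with 0.16 for its second probe set. As the mean of their probe sets, GINS2 and GINS4 were within 2-fold and the median of GINS was 0.49.

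Polymerase genes divided between subunits. The median of the 7 polymerase and primase genes was 1.30, and 4 of them passed 2-fold. POLE2, an accessory subunit of the leading strand polymerase epsilon, was at 9.31 in PC3CR and 7.19 in PC3, a difference of 2.12 or 4.35-fold, and it had 1 probe set. Its catalytic subunit POLE was at 5.78 in PC3CR and 5.53 in PC3, a difference of 0.25, and it was the replication gene that did not reach the signal floor on either array. In the polymerase alpha and primase complex, which lays down primers, PRIM1 was at 8.90 in PC3CR and 7.41 in PC3, a difference of 1.49. The accessory subunit POLA2 was at 7.86 in PC3CR and 6.29 in PC3, a difference of 1.58, whereas its 2 dimmer probe sets differed by 0.27 and -0.16. The catalytic subunit POLA1 was at 5.85 in PC3CR and 6.05 in PC3, a difference of -0.20, near the floor on both arrays. In polymerase delta, which extends the lagging strand, the accessory subunit POLD3 was at 8.21 in PC3CR and 6.91 in PC3, a difference of 1.30, and its dimmer probe set differed by -0.16. The catalytic subunit POLD1 was at 7.68 in PC3CR and 7.16 in PC3, a difference of 0.52. Further subunits of these enzymes, measured as part of another list, did not pass 2-fold towards PC3CR. The primase subunit PRIM2 differed by 0.21, POLD4 by 0.61, POLE3 by 0.37 and POLE4 by -0.17, and POLD2 by -1.16. Taken as the mean of their probe sets, POLA2 and POLD3 were at 0.56 and 0.57 and no longer past 2-fold.

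The sliding clamp PCNA was at 10.66 in PC3CR and 9.74 in PC3, a difference of 0.92 or 1.89-fold. RFC, the pentamer that loads PCNA onto DNA, had a median of 0.30, and 1 of its 5 subunits passed 2-fold. RFC1, the large subunit particular to this loader, was at 9.08 in PC3CR and 7.96 in PC3, a difference of 1.12, with 0.78 and 0.00 for its other probe sets and 0.63 as their mean. The small subunits lay within 2-fold. RFC2 was at 8.37 in PC3CR and 7.995 in PC3, a difference of 0.38, RFC3 at 8.73 in PC3CR and 8.44 in PC3, a difference of 0.30, and RFC4 at 10.45 in PC3CR and 10.16 in PC3, a difference of 0.29. RFC5 was at 8.31 in PC3CR and 8.67 in PC3, a difference of -0.36, but its other probe sets differed by 0.77 and 0.75, so that its direction rests on the probe set and its mean over probe sets was 0.39.

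RPA coats single-stranded DNA as a trimer, and 2 of its subunits were past 2-fold. RPA1, the large subunit, was at 11.43 in PC3CR and 10.37 in PC3, a difference of 1.06, with 0.99 for its next probe set and 0.94 after median centring. RPA3, the small subunit, was at 10.23 in PC3CR and 8.81 in PC3, a difference of 1.42. RPA2, the middle subunit, was level at 9.05 in PC3CR and 9.10 in PC3, a difference of -0.05. Of the enzymes that finish Okazaki fragments, the flap endonuclease FEN1 was at 10.02 in PC3CR and 8.94 in PC3, a difference of 1.08, with 1.19 for its second probe set and 0.95 for the first after median centring. The DNA ligase LIG1 was at 7.34 in PC3CR and 6.65 in PC3, a difference of 0.70 and within 2-fold.

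Of the genes that act behind and beside the helicase, only TIMELESS passed 2-fold on the probe set used. TIMELESS, which with TIPIN steadies the fork, was at 8.11 in PC3CR and 6.87 in PC3, a difference of 1.23, and its dim second probe set differed by 0.13, which brought the mean to 0.68. TIPIN was at 7.81 in PC3CR and 7.32 in PC3, a difference of 0.48. WDHD1, which couples polymerase alpha to the helicase, was at 6.99 in PC3CR and 6.49 in PC3, a difference of 0.50. Neither listed subunit of the histone chaperone CAF-1 passed 2-fold on the probe set used. CHAF1A was at 7.85 in PC3CR and 7.23 in PC3, a difference of 0.62 on a probe set open to related sequences, with 1.32 and 1.12 for the next brightest. CHAF1B was at 6.78 in PC3CR and 6.01 in PC3, a difference of 0.77.

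**Figure D4:**
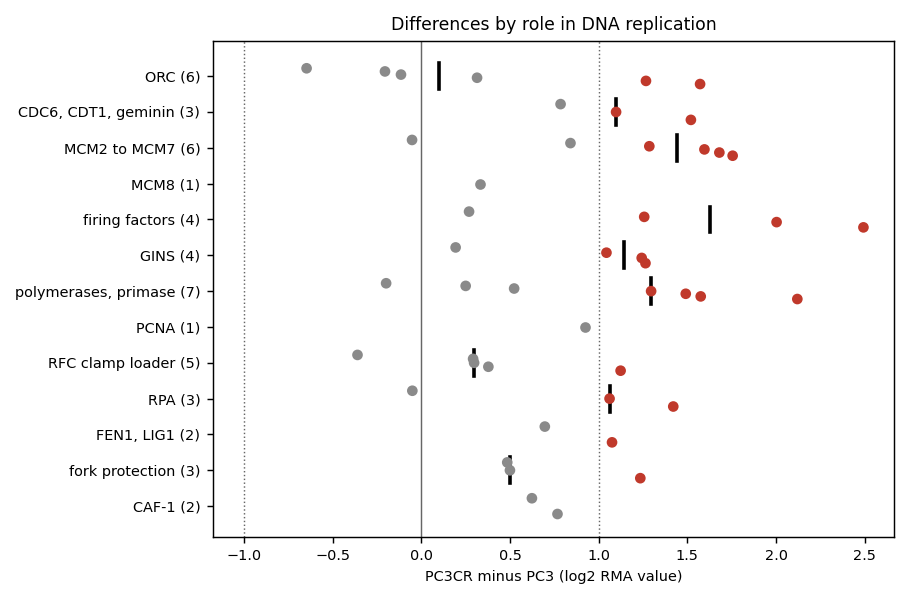
PC3CR minus PC3 (log2, horizontal axis) for the 47 replication genes by role, 1 point per gene, with group sizes in brackets. Genes past 2-fold towards PC3CR are red and those within 2-fold grey, black bars are medians of roles with at least 3 genes, and dotted lines mark 2-fold; the median is 1.44 for MCM2 to MCM7, 0.30 for RFC and 0.10 for ORC.

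Set side by side, the medians of the complexes were 1.44 for MCM2 to MCM7, 1.30 for polymerases and primase, 1.14 for GINS, 0.70 for CAF-1, 0.30 for RFC and 0.10 for ORC. These are descriptions of 2 to 7 genes each, and differences between the complexes were not tested. The ranges overlapped, since MCM7 at -0.05 and POLA1 at -0.20 lay below the ORC median, and ORC1 at 1.57 lay above each of these 6 medians. MCM2 to MCM7 and ORC kept their order under every alternative for probe sets and scaling, and RFC lay below MCM2 to MCM7 in each of them. Other orders did not all hold. With the dimmest probe sets the medians were 0.25 for polymerases and primase, 0.29 for RFC, 0.320 for GINS and 0.324 for ORC. The 1.30 for polymerases and primase also leaves out PRIM2, POLD2, POLD4, POLE3 and POLE4. These were measured on another list, and none passed 2-fold towards PC3CR.

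The 47 genes were read by 88 probe sets, which are not replicates of a culture but differ in the part of the message they bind. Of these, 33 passed 2-fold towards PC3CR and none towards PC3, against 8.94% and 5.89% of all probe sets. Of the 25 genes with several probe sets, 9 had differences on both sides of 0. Counting only probe sets above the signal floor, 17 genes had several, and 1 of these, RFC5, had differences on both sides of 0. Of the 23 genes at least 2-fold higher in PC3CR, 9 had a single probe set in all. Only 8 of the 23 had several probe sets above the signal floor, and in 5 of these 8 every such probe set passed 2-fold.

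**Figure D5:**
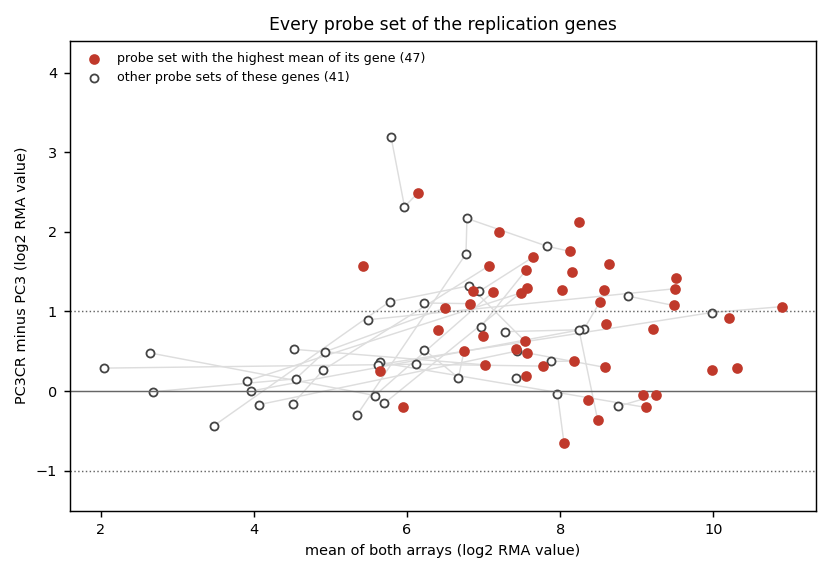
PC3CR minus PC3 (log2, vertical axis) against the mean of both arrays (log2 RMA value, horizontal axis) for all 88 probe sets of the replication genes. Red points are the 47 probe sets used, open points the other 41, grey lines join probe sets of 1 gene, and dotted lines mark 2-fold; the probe sets past 2-fold all have a mean above 5, and the open points left of that all lie within 2-fold.

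Genes that act with the replication machinery were read from 3 further lists. Of 27 other replication factors measured, 6 passed 2-fold towards PC3CR and 2 towards PC3, and the median was 0.37. The shares were 9.84% and 6.72% over all genes. Among genes above the signal floor, which 22 of the 27 reached, they were 15.5% and 10.8%, so that the counts stood near this background. With averaged probe sets the counts were 3 and 1, against 6.92% and 5.43% of all genes. ATAD5, which takes PCNA off DNA, was at 6.25 in PC3CR and 4.67 in PC3, a difference of 1.58. RFWD3, a ubiquitin ligase that acts on RPA, differed by 1.34, the translesion polymerase POLH by 1.24 and CLSPN, the checkpoint mediator claspin, by 1.23. POLH was at 0.83 and CLSPN, which did not reach the signal floor, at 0.48 when all probe sets were averaged. The 2 that were lower, named after their values were seen, were POLD2, a subunit of polymerase delta, at 8.67 in PC3CR and 9.83 in PC3, and RNASEH2C, a subunit of the enzyme that removes ribonucleotides from DNA, at 7.38 in PC3CR and 8.54 in PC3. Both differed by -1.16, and averaging the probe sets of RNASEH2C gave -0.27. In polymerase delta, POLD3 and POLD2 thus lay past 2-fold in opposite directions.

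Regulators of S phase entry and of licensing were also mostly higher. Of 16 genes, 7 passed 2-fold towards PC3CR and none towards PC3, and the median was 0.79. The shares were 9.84% and 6.72% over all genes and 15.5% and 10.8% among genes above the signal floor. With averaged probe sets 7 again passed 2-fold towards PC3CR, against 6.92% of all genes. E2F8, an E2F family member that represses, was at 7.42 in PC3CR and 5.05 in PC3, a difference of 2.38. SKP2, which marks CDT1 and the CDK inhibitor p27 for degradation, was at 9.64 in PC3CR and 7.67 in PC3, a difference of 1.97. CCNA2, encoding cyclin A2, was at 9.36 in PC3CR and 7.43 in PC3, a difference of 1.92, and its partner CDK2 differed by 1.70. The activating E2F genes, named for their role after their values were seen, were not past 2-fold. E2F1 was at 6.77 in PC3CR and 6.50 in PC3, a difference of 0.27. E2F2 was at 5.98 in PC3CR and 5.55 in PC3, a difference of 0.43, below the signal floor on both arrays. E2F3 was at 8.20 in PC3CR and 9.07 in PC3, a difference of -0.87. Of 10 genes of chromatin assembly, 4 passed 2-fold towards PC3CR and none towards PC3, and the median was 0.78. With averaged probe sets 2 of the 10 passed 2-fold towards PC3CR. UHRF1, which guides DNA methylation to new DNA, was at 9.71 in PC3CR and 7.48 in PC3, a difference of 2.23, and the histone chaperones ASF1B, ASF1A and NASP differed by 1.29, 1.23 and 1.02, with ASF1A and NASP at 0.90 and 0.96 when probe sets were averaged. RBBP4, the remaining subunit of CAF-1, was at 10.69 in PC3CR and 10.05 in PC3, a difference of 0.64, or 0.96 when probe sets were averaged. Like CHAF1A and CHAF1B, RBBP4 was within 2-fold on the probe set used, though other probe sets of CHAF1A, at 1.32 and 1.12, were past it.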

How the data were processed

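Total RNA of PC3CR and PC3 was hybridised to 1 array each. The authors deposited log2 values made with the robust multichip average, with Affymetrix Expression Console 1.4 and, per their processing notes, Transcriptome Analysis Console 3.1. This method brings both arrays to 1 distribution, so a difference in total RNA per cell would not be seen. Identifiers matched the U133 Plus 2.0 design, although the Human Gene 1.0 ST array is named in the methods. The scanner files were not used here.

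Of 54613 probe sets, 41091 had 1 gene symbol in the platform annotation and were used, 1801 had several and 11721 were unnamed here. Symbols of 41037 were updated by Entrez ID to RefSeq, which left 19775 genes, 10523 of them with several probe sets. The log2 difference was counted at 2-fold, and no p-value was computed because there was 1 array per cell line. All listed replication genes were named, and in each other list up to 4 genes furthest from 0 past 2-fold. Members and lists were chosen with earlier results of these data known. Alternatives were other fold thresholds, choices of probe set, a signal floor and 3 scalings (median centring, loess with a span of 0.4, quantile normalization). A log2 value was taken as moved by over 0.1 and a count by over 1.5 times. Promoters, from 250 bases before to 50 after the start, were searched for motifs on both strands. A planned search of protein sequences was not run. Some listed marker genes were not analysed here. The procedures were tested on simulated data. The software was Python 3.11.15 with statsmodels 0.14.6 (loess), pandas 2.3.3, numpy 2.4.6 and, for plots, matplotlib 3.10.9.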

Additional observations from a re-analysis of the deposited data

How the results depend on the processing

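With 1 array per cell line no array could be left out and no paired analysis was possible. The number of replication genes at least 2-fold higher in PC3CR was 23 and lay between 16 and 21 when probe sets were averaged or after a scaling. Over all genes the share was 6.92% with averaged probe sets and 8.15% to 9.10% after the scalings. The number was 29 at 1.5-fold (18% of all genes), 6 at 3-fold (3.82%), 15 of the 36 genes that had a probe set with a plain identifier (9.92%), and 13 with the dimmest probe set of each gene (6.50%). None was at least 2-fold lower under any alternative, and 1 was lower at 1.5-fold. Median centring shifted all differences by -0.12.

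The median of the replication genes, 0.92, was 0.66 with the mean of probe sets and over all 88 probe sets, 0.61 with plain identifiers, 0.52 with the dimmest probe sets and 0.80 after median centring. With the mean of probe sets the medians were 1.26 for MCM2 to MCM7, 0.49 for GINS and 0.56 for polymerases and primase. With plain identifiers they were 0.34 for ORC, 0.62 for GINS, 0.91 for polymerases and primase and 0.17 for CAF-1. With the dimmest probe sets they were 0.32 for ORC, 0.87 for MCM2 to MCM7, 0.32 for GINS, 0.25 for polymerases and primase and 0.17 for CAF-1. After median centring they were -0.024 for ORC, 1.32 for MCM2 to MCM7, 1.02 for GINS, 0.17 for RFC, 1.17 for polymerases and primase and 0.57 for CAF-1. After loess centring ORC was at -0.014, GINS at 1.02, polymerases and primase at 1.16 and CAF-1 at 0.57, and after quantile normalization these were at -0.012, 0.99, 1.17 and 0.54.

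Of the genes at least 2-fold higher, GINS2 was at -0.056 with plain identifiers. With the dimmest probe sets MCM4 was at -0.30, GINS4 at -0.0085, POLA2 at -0.16 and POLD3 at -0.16. These probe sets all lay below the signal floor, and the cause was not tested.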

Other observations

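The differences of the replication genes were set beside those of their neighbours on the chromosome, as the median over the 10 nearest measured genes above the signal floor, 5 on each side and none of them a replication gene. Over the 47 genes these medians ranged from -0.78 to 1.26, and their own median was 0.10. Of the 23 genes at least 2-fold higher in PC3CR, 13 exceeded the median of their neighbours by at least 1. This follows in part from their choice at a difference of at least 1, and other genes were not counted in this way. Among the 13 were MCM6 with 1.29 beside -0.74, GINS1 with 1.26 beside -0.30 and FEN1 with 1.08 beside -0.28. The neighbours of these named genes had medians below 0, whereas those of MCM4, with 1.76 beside 0.24, did not. For 7 of the 23 the neighbours themselves had a median above 0.5. PRIM1 and TIMELESS, both on chromosome 12, had the same neighbour median of 0.66, so the 7 need not be separate regions. Among the genes within 2-fold, the neighbours of RFC3, GINS3 and ORC3 also had medians above 0.5, at 1.03, 0.63 and 0.61. The share over genes in general was not computed. POLE2 on chromosome 14 differed by 2.12 beside 1.26, with 6 of its 10 neighbours at least 2-fold higher, and MCM10 on chromosome 10 by 2.49 beside 0.90. RFC3 on chromosome 13 differed by 0.30 although its neighbours had a median of 1.03 and 7 of 10 were at least 2-fold higher. ORC3 on chromosome 6 differed by -0.11 beside 0.61.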
